A study of Mus musculus with 5 samples.

Results

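The genes described here encode 9 transcription factors: the Ikaros family members *Ikzf1*, *Ikzf2*, *Ikzf3* and *Ikzf5*, and the Ets family members *Ets1*, *Ets2*, *Fli1*, *Elf1* and *Gabpa*. They were chosen by name from the 22372 protein-coding genes of the annotation. For each gene, the listed windows of 3 ChIP-seq data sets were collected within 1 kb of each transcription start site (TSS) and from 10 kb upstream of the gene to its end, on the mouse assembly mm9. TSSs of a gene that lay within 1 kb of the next were treated as 1 promoter, which gave 15 promoters.

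The study asked how Cxxc1 shapes trimethylation of lysine 4 of histone H3 (H3K4me3) in DP thymocytes, the CD4 and CD8 double-positive stage of T-cell development in the thymus. The wild-type (WT) mice carried *Cxxc1* fl/fl without Cre. The Cxxc1-deficient mice carried *Cxxc1* fl/fl with the hCD2-Cre transgene, which removed exons 4 and 5 early in T-cell development and also deletes in other immune cells. The sample titles call these libraries KO, whereas their genotype labels read Cxxc1+/-, and the titles were followed. By the study's methods mice were 3 to 4 weeks of age unless otherwise stated, and chromatin came from sorted DP cells. The lists analysed were H3K4me3 in WT cells, H3K4me3 in Cxxc1-deficient cells and Cxxc1, the last taken as WT from the methods because its file carries no genotype. Each list holds the windows of 1 ChIP library, so genotypes were compared without replication, and no test was run. By the methods, the Cxxc1 regions were called with the Cxxc1-deficient ChIP and input as controls. The files of those controls were not analysed here.

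Ikaros proteins bind DNA through zinc fingers, act with the NuRD chromatin remodelling complex and are known regulators of lymphoid development. Ets factors share a winged-helix domain that contacts a GGAA core, and *Ets1*, *Fli1*, *Elf1* and *Gabpa* have known functions in T cells or their precursors. H3K4me3 marks promoters, most of all those rich in CpG, and Cxxc1 is the CpG-binding subunit of the Setd1 methyltransferase complexes that place it.

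The values were 200-bp windows inside enriched regions in RPM (tags per 1000000 mapped tags), and a place outside such a region has no value rather than a value of 0. From the steps between values, 1 tag was worth 0.1056 to 0.1062 RPM in both H3K4me3 lists and 0.1083 to 0.11 RPM in the Cxxc1 list, or about 9.091 to 9.47 M tags per library. Neighbouring windows with gaps of up to 2 windows were merged into peaks. There were 14237 WT and 2979 Cxxc1-deficient H3K4me3 peaks and 4352 Cxxc1 peaks, and the weakest of each list summed to 1.1 RPM. Of 10 markers of DP thymocytes, 4 had WT H3K4me3 at a promoter (*Cd8a*, *Cd8b1*, *Cd3e* and *Lck*), whereas *Cd4*, *Rag1*, *Rag2*, *Cd3d*, *Cd3g* and *Themis* were not listed. In Cxxc1-deficient cells 3 were listed, *Cd8a*, *Cd3e* and *Rag1*. The shares over all protein-coding genes were 31.1% in WT and 5.86% in Cxxc1-deficient cells. None of 5 B cell, 5 myeloid or 5 thymic epithelium markers was listed at a promoter in either genotype. Of 4 erythroid markers, *Klf1* was listed in WT at 0.9 RPM and *Epor* in Cxxc1-deficient cells at 1.9 RPM.

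The sequences shown first are the stretches just upstream of 5 TSSs, read 5′ to 3′ along the gene from the mm9 genome, with every CG in capitals because CG is the dinucleotide to which Cxxc1 binds. *Ikzf1*, *Ets2* and *Ikzf5* had WT H3K4me3 at these promoters, and both *Ets1* promoters had none listed. The *Ikzf5* stretch is the whole gap to the divergent gene *Acadsb*. Those of *Elf1*, *Gabpa* and *Ikzf3* are not shown because annotated exons lie in them.
Ikzf1 first promoter, chr11:11584756-11585005, plus strand: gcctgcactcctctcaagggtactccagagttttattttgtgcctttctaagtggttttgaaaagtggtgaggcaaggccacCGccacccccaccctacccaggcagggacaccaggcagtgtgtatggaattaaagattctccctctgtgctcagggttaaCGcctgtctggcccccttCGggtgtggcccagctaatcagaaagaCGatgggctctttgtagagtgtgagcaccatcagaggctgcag
Ets2 first promoter, chr16:95923432-95923681, plus strand: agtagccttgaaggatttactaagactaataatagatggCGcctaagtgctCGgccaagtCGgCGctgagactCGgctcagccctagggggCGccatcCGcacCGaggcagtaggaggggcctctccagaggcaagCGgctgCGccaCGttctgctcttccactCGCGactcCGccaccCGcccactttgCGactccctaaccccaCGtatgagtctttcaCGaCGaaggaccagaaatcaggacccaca
Ikzf5 first promoter, chr7:138554036-138554114, minus strand: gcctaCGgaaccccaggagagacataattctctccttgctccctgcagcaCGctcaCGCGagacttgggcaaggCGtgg
Ets1 first promoter, chr9:32443556-32443805, plus strand: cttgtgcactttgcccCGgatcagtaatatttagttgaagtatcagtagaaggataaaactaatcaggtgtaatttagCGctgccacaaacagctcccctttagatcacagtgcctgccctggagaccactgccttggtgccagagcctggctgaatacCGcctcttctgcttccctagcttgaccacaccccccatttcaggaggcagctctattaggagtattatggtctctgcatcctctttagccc
Ets1 second promoter, chr9:32503377-32503626, plus strand: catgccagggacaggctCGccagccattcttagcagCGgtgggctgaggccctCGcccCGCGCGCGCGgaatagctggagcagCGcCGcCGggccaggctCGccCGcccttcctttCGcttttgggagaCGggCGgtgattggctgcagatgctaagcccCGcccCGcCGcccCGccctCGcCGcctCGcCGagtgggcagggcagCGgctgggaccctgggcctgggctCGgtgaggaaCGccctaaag

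The 250 bases before the first *Ikzf1* TSS held 4 CG and those of *Ets2* 19. At *Ets1* the first promoter held 3 CG and the second promoter 27, more than either listed promoter of that length shown above. The CCGGAAG motif bound by Gabpa was found at 1 of the 15 promoters, that of *Gabpa* itself. The shares were 8.32% of all promoters and 13.0% of those with WT H3K4me3 listed. The other motif searched, TGGGAA, was also found at 1 of the 15, that of *Fli1*, beside 21.0% and 18.9%. Both were searched in the 250 bases before the TSS, CCGGAAG on both strands. Enrichment of either motif at these promoters was not tested.

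The first question was which of these genes carry promoter H3K4me3 in WT cells. WT H3K4me3 was listed at a promoter of 6 of 9 genes, namely *Ikzf1*, *Ikzf5*, *Ets2*, *Fli1*, *Elf1* and *Gabpa*, and at none of the promoters of *Ikzf2*, *Ikzf3* and *Ets1*. Over all protein-coding genes the share was 31.1%. The summed level at the listed genes ran from 2.1 to 3.9 RPM with a median of 3.4 RPM, beside a median of 2.4 RPM over all 6962 genes with WT H3K4me3 there. Intervals are exact 95% Poisson intervals on the inferred tags and cover counting error only, and they sit slightly high against the sums because the deposited values have 1 decimal.

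*Ikzf1*, which encodes Ikaros (chr11:11585006-11672929, plus strand), had 3.9 RPM in 11 windows, or 39 tags (interval 2.94 to 5.65 RPM). This placed it at percentile 91.1 of the listed genes, over a first promoter whose 5 TSSs span a longer stretch than those of the other genes. *Ikzf5*, which encodes Pegasus (chr7:138532166-138554035, minus strand), had the lowest sum, 2.1 RPM in 5 windows or 21 tags (1.38 to 3.4 RPM), at percentile 34.8. *Ets2* (chr16:95923682-95942658, plus strand) had 3.5 RPM in 9 windows or 35 tags (2.58 to 5.16 RPM). *Elf1* (chr14:79881001-79982283, plus strand) had the same sum and tags in 8 windows. Both stood at percentile 84.7.

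*Fli1*, a factor of blood stem cells and megakaryocytes (chr9:32229793-32348974, minus strand), had 3.3 RPM in 9 windows or 33 tags (2.41 to 4.91 RPM). *Gabpa*, the DNA-binding subunit of GABP (chr16:84835170-84864024, plus strand), had 2.8 RPM in 7 windows or 28 tags (1.97 to 4.29 RPM). All 6 intervals overlapped one another, so neighbours in the order *Ikzf1*, *Ets2* and *Elf1*, *Fli1*, *Gabpa*, *Ikzf5* could not be told apart at this depth. Per listed window the order was another: the mean was 0.438 RPM at *Elf1*, 0.42 at *Ikzf5*, 0.4 at *Gabpa*, 0.389 at *Ets2*, 0.367 at *Fli1* and 0.355 at *Ikzf1*. These means rest on the same tags and leave out unlisted windows. No interval was computed for them, and their order was not tested.

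**Figure D1:**
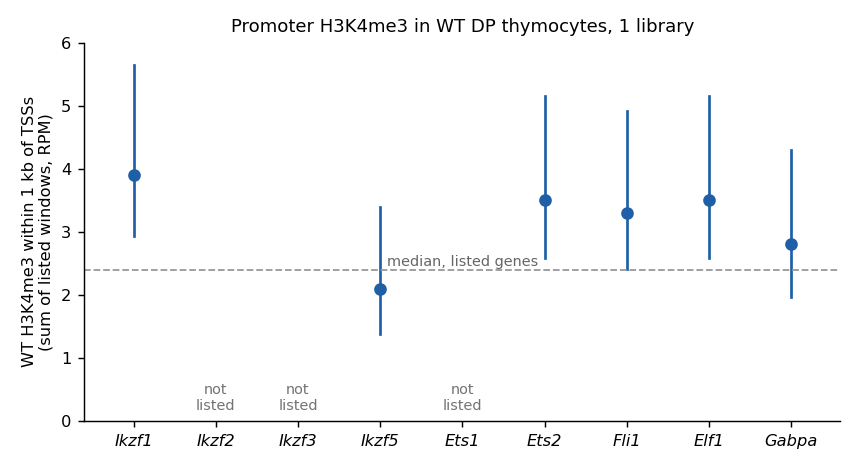
WT H3K4me3 summed over the listed windows within 1 kb of the TSSs of each gene (vertical axis, RPM, 1 library), with exact 95% Poisson intervals as bars and the median of all listed genes, 2.4 RPM, as a dashed line. The 6 listed genes lie between 2.1 and 3.9 RPM with overlapping intervals, and *Ikzf2*, *Ikzf3* and *Ets1* have no listed value.

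Across these promoters the listed signal within 1 kb was larger on the downstream side of the first TSS than on the upstream side at all 6 genes. At *Gabpa* it was 2.0 RPM downstream and 0.8 upstream, at *Ets2* 2.3 and 1.2, and at *Ikzf1* 2.0 and 1.1. The sides were closest at *Fli1*, with 1.8 RPM downstream and 1.5 upstream, while *Elf1* had 2.1 and 1.4 and *Ikzf5* 1.3 and 0.8. These are sums of listed windows, and the downstream side held more listed windows at each of these genes. No interval was computed for the differences of a few tags, and they were not tested. The highest single window held 0.7 RPM, or 7 tags, 618 bp downstream of the *Ets2* TSS. The first TSS itself lay in a listed window at 4 of 6 genes, and at *Ikzf1* and *Elf1* the window over it was missing. At *Elf1* no TSS of the gene was covered by a listed window, which was true of 15.5% of all genes with WT H3K4me3 at a promoter.

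**Figure D2:**
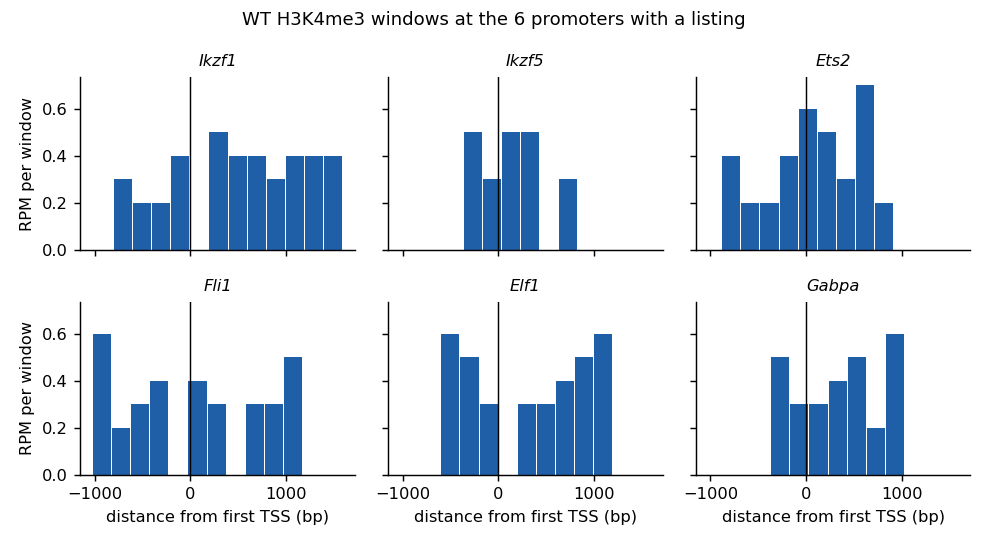
WT H3K4me3 in each listed 200-bp window (bars, RPM) against the distance of the window from the first TSS (bp, negative upstream, line at the TSS) for the 6 genes with a listing. Windows flank an unlisted gap over or just after the TSS at *Ikzf1* and *Elf1*, and the highest window, 0.7 RPM, lies downstream in *Ets2*.

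Whole peaks ranked the genes differently, since 3 of them, those of *Ets2*, *Fli1* and *Elf1*, ran past the 1 kb limit. The *Ets2* peak (chr16:95922401-95926200) was 3.8 kb wide and summed to 6.4 RPM or 64 tags, at percentile 98.4 of WT peaks. The *Fli1* peak (chr9:32347801-32351800) was 4.0 kb wide, at percentile 97.5 of WT peaks by width, and summed to 5.5 RPM or 55 tags. Its midpoint lay upstream of the TSS at −0.827 kb, whereas those of the other 5 lay inside the gene. The peaks of *Ikzf1* (2.4 kb, 3.9 RPM) and *Elf1* (2.0 kb, 3.8 RPM) followed, then *Gabpa* (1.4 kb, 2.8 RPM) and *Ikzf5* (1.2 kb, 2.1 RPM).

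Of the 6 listed genes, 3 had the TSS of a protein-coding gene on the opposite strand within 1 kb, beside 21.1% of all genes with WT H3K4me3 at a promoter. The TSS of *Acadsb*, which encodes an acyl-CoA dehydrogenase, was 80 bp from that of *Ikzf5*. The TSS of *Wbp4* was 74 bp from that of *Elf1*, and that of *Atp5j*, which encodes a subunit of the mitochondrial ATP synthase, 700 bp from that of *Gabpa*. The listed windows at these 3 promoters cannot be assigned to either gene of the pair. At *Ikzf1* the antisense non-coding gene *Gm11999* started 397 bp inside the gene, within the same peak.

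Of the 5 genes with several promoters, 4 had listed H3K4me3 at the first of them and *Ets1* at neither. At *Ikzf1* the first promoter had 3.9 RPM, and the promoters 5.26 kb and 15.2 kb downstream had no listed window. The same held for the *Ets2* promoter 4.26 kb downstream and the *Elf1* promoter 34.5 kb downstream. The second *Ikzf5* promoter, 1.44 kb downstream, had 0.3 RPM in 1 window that also belonged to the first. In all, 7 of 15 promoters had a WT window and 8 had none.

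CpG content was counted in the 2 kb around each promoter's first TSS. The first promoters of the 6 listed genes held 193 CpG at *Elf1*, 151 at *Gabpa*, 129 at *Ikzf1*, 128 at *Ets2*, 120 at *Fli1* and 103 at *Ikzf5*. The second *Ikzf5* promoter, listed through the 1 window it shares with the first, held 30. The median was 97 over all genes with WT H3K4me3 at a promoter and 37 over those without. The unlisted promoters fell into 2 kinds. The later promoters of *Ikzf1*, *Ets2* and *Elf1*, the first of *Ets1* and that of *Ikzf2* held 20 to 32 CpG, whereas the second *Ets1* promoter held 100 and the *Ikzf3* promoter 90 without a listed window. CpG content and H3K4me3 listing are related across all genes, and these values only describe the 15 promoters.

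**Figure D3:**
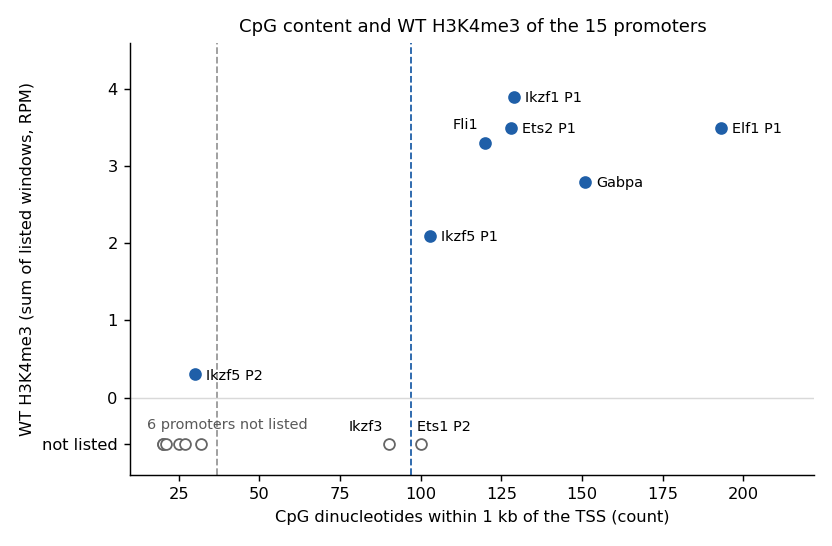
WT H3K4me3 at each of the 15 promoters (vertical axis, sum of listed windows in RPM, open circles below 0 for promoters not listed) against the number of CpG dinucleotides within 1 kb of the TSS. Dashed lines mark the medians of genes with (97) and without (37) WT H3K4me3 at a promoter, and *Ikzf3* (90 CpG) and the second *Ets1* promoter (100 CpG) are unlisted. The first promoters of the 6 listed genes have 103 to 193 CpG, and the second *Ikzf5* promoter is listed at 0.3 RPM with 30 CpG.

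The second question was what the same promoters showed in Cxxc1-deficient cells. None of the 9 genes had a listed Cxxc1-deficient window at any of its 15 promoters, beside 5.86% of all protein-coding genes. Thus all 6 genes with WT promoter H3K4me3 had none listed in Cxxc1-deficient cells, and so did 87.2% of all genes with WT promoter H3K4me3. The count for these 6 genes is therefore close to the background of the whole list, which held far fewer peaks in Cxxc1-deficient cells. No level can be given for the unlisted promoters, and no fold change follows. The methods name input and Cxxc1-deficient ChIP DNA as controls without saying which served the H3K4me3 lists, and the part of that choice in the WT-only listing was not tested.

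Cxxc1 was listed at a promoter of none of the 9 genes, beside 1.96% of all protein-coding genes. No Cxxc1 window therefore fell at the 6 promoters where H3K4me3 was listed in WT and not in Cxxc1-deficient cells. With only 1.96% of all genes listed, a count of none says nothing particular about these genes. The share over all genes with such WT-only listing was not computed.

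The third question was where windows lay along the whole genes. WT H3K4me3 was listed between 10 kb upstream and the gene end in 8 of 9 genes (background 41.5%), in 122 windows that summed to 47.3 RPM. Cxxc1-deficient H3K4me3 was listed there in 3 of 9 genes (background 11.0%), *Ikzf1*, *Ets1* and *Fli1*, in 30 windows that summed to 10 RPM. These 3 were among the 6 genes whose region was at least 80 kb long, and over all genes with such regions the share was 19.2%. The WT share over regions of that length was not computed, so the part of length in the WT count was not tested. *Ikzf2*, which encodes Helios and was the longest of the 9 at 155 kb (chr1:69577788-69732534, minus strand), had no listed window in any of the 3 lists.

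**Figure D4:**
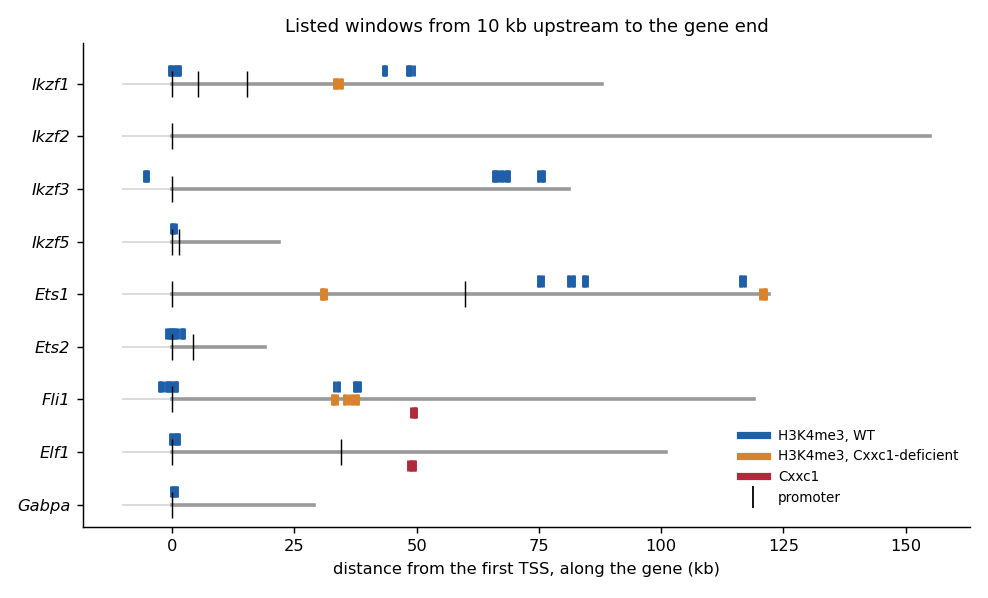
Listed windows of the 3 lists (coloured ticks) along each gene, against the distance from its first TSS (kb, thin line for the 10 kb upstream, thick line for the gene, black ticks for promoters). WT H3K4me3 covers the first promoter of 6 genes, and Cxxc1-deficient H3K4me3 appears inside *Ikzf1*, *Ets1* and *Fli1* and at no promoter.

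Of 17 WT peaks in these regions, 11 lay more than 1 kb from every coding TSS of the gene, in *Ikzf1*, *Ikzf3*, *Ets1* and *Fli1*. All 5 Cxxc1-deficient peaks did, in 3 genes. In *Ikzf1* the WT list held intronic peaks at chr11:11628001-11628800 (1.6 RPM, 16 tags) and chr11:11633001-11634600 (2.3 RPM, 23 tags). The Cxxc1-deficient list held another intronic peak at chr11:11618001-11619800 (2.3 RPM, 23 tags), 33.9 kb from the first TSS, where the WT list had none. No window of *Ikzf1* was thus listed in both genotypes, and the share of windows listed in both over the whole lists was not computed.

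*Ikzf3*, which encodes Aiolos (chr11:98326216-98407345, minus strand), had no peak at its promoter but WT peaks within the gene. The largest, at chr11:98338201-98341600, was 3.4 kb wide and summed to 3.7 RPM or 37 tags (2.76 to 5.4 RPM). It lay 67.2 kb from the TSS, over the start of a non-coding transcript annotated to *Ikzf3*. A smaller intronic peak at chr11:98331001-98332400 held 2.0 RPM. The peak at −5.39 kb, upstream of the gene (chr11:98412001-98413000, 2.1 RPM), covered the TSS of the neighbouring gene *Zpbp2* and had 61.0 CpG per kb, more than either intronic peak (20 and 16.5). No Cxxc1-deficient window was listed in *Ikzf3*.

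*Ets1*, which is needed for the development and survival of T cells (chr9:32443806-32565405, plus strand), had neither promoter listed. It had 4 WT peaks downstream of its second promoter: at chr9:32518601-32519800 (1.6 RPM), chr9:32524601-32526000 (1.8 RPM), chr9:32527801-32528800 (2.5 RPM) and chr9:32559801-32561000 (1.5 RPM). The first 3 were intronic and the last had its midpoint in an exon. The Cxxc1-deficient list held a peak between the promoters (chr9:32474201-32475400, 1.7 RPM, 17 tags) and a peak over the 3′ end of the gene (chr9:32564001-32566800, 2.9 RPM, 29 tags). None of the 6 peaks overlapped a peak of the other genotype, and the share of all peaks that do was not computed.

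*Fli1* was alone among the 9 genes in that WT and Cxxc1-deficient H3K4me3 peaks overlapped there. Only 3 of the 9 had a Cxxc1-deficient peak, and the share of overlapping peaks in the whole lists was not computed. The overlap lay in an intron about 33 to 38 kb from the TSS, where the WT peaks were chr9:32310401-32311800 (2.3 RPM, 23 tags) and chr9:32314801-32316000 (1.4 RPM, 14 tags). The Cxxc1-deficient peaks were chr9:32310801-32314000 (2.8 RPM, 28 tags) and chr9:32315201-32316400 (1.8 RPM, 18 tags). In the 4 windows listed in both, WT held 0.3, 0.2, 0.7 and 0.4 RPM and Cxxc1-deficient cells 0.4, 0.3, 0.5 and 0.2 RPM. The sums were 1.6 RPM in WT (16 tags, 0.969 to 2.75 RPM) and 1.4 RPM in Cxxc1-deficient cells (14 tags, 0.811 to 2.49 RPM). Their intervals overlapped, and WT was lower in 2 windows and higher in 2. These windows were chosen because both lists held them, so they cannot show whether the level was kept. Within 1 kb of the *Fli1* TSS, 3.3 RPM was listed in WT and no window in Cxxc1-deficient cells.

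**Figure D5:**
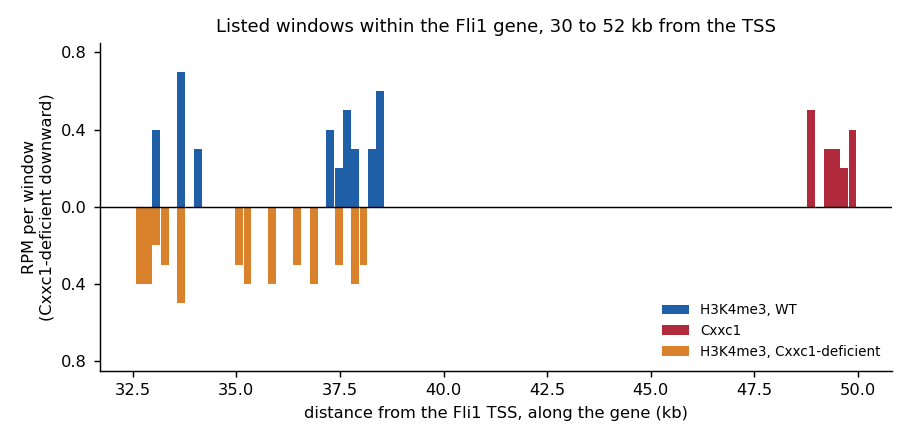
RPM of each listed window within *Fli1* against its distance from the TSS (kb), with WT H3K4me3 and Cxxc1 drawn upward and Cxxc1-deficient H3K4me3 downward. H3K4me3 of both genotypes is listed near 33 to 38 kb, with 4 windows in both lists and the others in 1 list only. The Cxxc1 windows near 49.4 kb lie apart from these.

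Between the *Fli1* TSS and the first *Ets1* TSS, which lie 94.8 kb apart and point away from each other, there were 2 more WT H3K4me3 peaks and no Cxxc1-deficient or Cxxc1 peak. They lay at chr9:32415801-32417000 (2.1 RPM) and chr9:32417801-32419400 (2.3 RPM), 27.4 kb and 25.2 kb before the first *Ets1* TSS.

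Cxxc1 was listed in 2 of 9 genes between 10 kb upstream and the gene end, *Fli1* and *Elf1*, beside 11.1% of all protein-coding genes. Both were among the 6 genes with regions of at least 80 kb, and over all genes with regions of that length the share was 30.6%. The *Fli1* peak (chr9:32299001-32300200) was intronic, 49.4 kb from the TSS, and held 1.7 RPM or 17 tags (1.08 to 2.97 RPM). The *Elf1* peak (chr14:79929201-79930800) was intronic, 49.0 kb from the first TSS and 14.5 kb from the second promoter, and held 2.2 RPM or 21 tags (1.42 to 3.5 RPM). Neither overlapped an H3K4me3 peak of either genotype, and the share of all Cxxc1 peaks that do was not computed. The study reported that few Cxxc1 sites coincide with H3K4me3.

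The windows with the highest value of 4 intragenic peaks are shown on the plus strand, again with CG in capitals: those of both Cxxc1 peaks, the *Fli1* window listed in both genotypes and the strongest WT window of *Ets1*.
Fli1 Cxxc1 window, chr9:32300001-32300200, plus strand: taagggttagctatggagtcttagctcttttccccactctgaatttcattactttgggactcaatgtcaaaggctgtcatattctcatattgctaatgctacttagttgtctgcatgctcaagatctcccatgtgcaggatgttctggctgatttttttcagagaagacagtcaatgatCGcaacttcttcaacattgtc
Elf1 Cxxc1 window, chr14:79929801-79930000, plus strand: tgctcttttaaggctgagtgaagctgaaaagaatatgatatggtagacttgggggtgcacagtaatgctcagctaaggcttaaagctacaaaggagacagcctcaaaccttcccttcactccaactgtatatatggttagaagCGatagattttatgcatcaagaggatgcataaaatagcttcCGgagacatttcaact
Fli1 H3K4me3 window of both genotypes, chr9:32315201-32315400, plus strand: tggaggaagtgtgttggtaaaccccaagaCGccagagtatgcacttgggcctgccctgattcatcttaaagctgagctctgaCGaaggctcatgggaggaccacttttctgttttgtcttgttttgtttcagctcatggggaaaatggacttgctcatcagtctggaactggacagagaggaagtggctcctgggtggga
Ets1 WT H3K4me3 window, chr9:32527801-32528000, plus strand: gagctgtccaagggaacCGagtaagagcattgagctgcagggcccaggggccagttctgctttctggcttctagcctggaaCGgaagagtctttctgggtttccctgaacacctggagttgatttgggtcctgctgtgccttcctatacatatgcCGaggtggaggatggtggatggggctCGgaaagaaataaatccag

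These windows held 1, 2, 2 and 4 CG in 200 bases. Over whole peaks, the Cxxc1 peaks had 8.33 CpG per kb in *Fli1* and 13.8 in *Elf1*, around the median of the Cxxc1 list (10.8). The WT promoter peaks of the 6 genes had 41.3 to 102 CpG per kb, above the median of the WT list (25.0). That list also holds peaks away from promoters, and a median over promoter peaks alone was not computed. The H3K4me3 peaks away from the TSSs, apart from the peak at *Zpbp2*, had 7.78 to 20 CpG per kb, below that WT median, and the median of the Cxxc1-deficient list was 17.9. The peak at *Zpbp2*, with 61.0 CpG per kb, lay within the range of the 6 promoter peaks. Neither it nor the 6 promoter peaks overlapped a Cxxc1 peak, and the share of all WT peaks that do was not computed.

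Other genes of the same families and their partners were read in the same way. Of 22 further Ikaros and Ets family genes, 10 had WT and 5 had Cxxc1-deficient H3K4me3 at a promoter, 4 of them in both, beside 31.1% and 5.86% of all genes. Both genes of the Gabpa partner subunit were listed in WT, *Gabpb1* at 4.0 RPM and *Gabpb2* at 2.0 RPM, and neither was in Cxxc1-deficient cells. Of 11 genes of the NuRD complex, 8 were listed in WT and none in Cxxc1-deficient cells. Over all genes with WT promoter H3K4me3, 87.2% had none listed in Cxxc1-deficient cells. That share stands beside the family genes and the Gabpa partners too, and differences between these lists were not tested. The largest WT sums were those of *Gatad2a* (6.8 RPM) and *Mbd3* (5.0 RPM), followed by the deacetylase gene *Hdac2* (3.1 RPM), *Mta3* (3.0 RPM) and the remodeller gene *Chd4* (2.8 RPM). Cxxc1 windows lay between 10 kb upstream and the gene end in 5 of the 11 NuRD genes, *Hdac1*, *Hdac2*, *Mta1*, *Mta3* and *Gatad2a*, at 1.6 to 2.0 RPM, beside 11.1% of all genes and 30.6% of those with regions of at least 80 kb.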

How the data were processed

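DP thymocytes of the thymus gave 5 samples with 1 library each, and 3 lists were analysed. Per the study's methods, sonicated chromatin was sequenced as 50-bp reads, uniquely mapped reads were assigned to mm9 and SICER called enriched islands. The submitters' processing notes name CASAVA 1.8.2 and SICER 1.1. The methods name input and Cxxc1-deficient ChIP DNA as controls of the peak calling, without saying which were used for each H3K4me3 list. The aligner and the treatment of duplicates are not given in the sources used here, and all of these could alter the lists. The authors deposited RPM values at 1 decimal for the 200-bp windows inside islands, so a place outside has no value, and the rounding lowers sums slightly.

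From these files, the value of 1 tag was inferred from the decimals that occur. Tags per window were the RPM divided by it, rounded, and summed tags carry exact 95% Poisson intervals. The lowest listed window held 2 tags (0.2 RPM). Overlap meant at least 1 bp. A region ran from 10 kb upstream to the gene end, and lengths of at least 80 kb were also compared by themselves. TSSs were those of GENCODE vM1 coding transcripts, annotated on the mm9 assembly, and sequences were read from that genome. A further promoter sequence is not reported here. Python 3.11.15, numpy 2.4.6, pandas 2.3.3, scipy 1.17.1, pysam 0.24.0, matplotlib 3.10.9 and samtools 1.23.1 were used. The lookups were tested on simulated data.

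The 9 genes and all lists were chosen with earlier results of these data known. All 9 are named. Of the other lists, genes were named if listed at a promoter in both H3K4me3 lists or in the Cxxc1 list, otherwise the 5 with the largest WT sum. *Etv1*, *Etv6*, *Klf1*, *Epor*, *Hdac1*, *Mta1* and the unlisted DP markers were named after their values were seen. Genes whose pattern over the 3 lists was most like that of *Ikzf1* were to be named, but 57 genes tied at no distance, so none was. Alternatives were promoters of 500 bp or 2 kb, the stronger 50% of peaks, at least 3 windows at one TSS, every annotated transcript, the gene body alone, 50 kb upstream and whole peaks.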

Additional observations from a re-analysis of the deposited data

How the results depend on the processing

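Of 18 alternative counts, 16 were equal to or within 1.5 times the reported ones. The 6 genes with WT and without Cxxc1-deficient promoter H3K4me3 stayed 6 with promoters of 500 bp or 2 kb and with at least 3 windows at one TSS. They were 5 among the stronger 50% of peaks, without *Ikzf5*, and 7 with every annotated transcript, where *Ikzf3* joined through its internal non-coding transcript. No alternative listed a Cxxc1-deficient window at a promoter, so no alternative sum exists for that list. The 2 genes with Cxxc1 became 4 with 50 kb upstream, where *Ikzf2* and *Ikzf3* joined *Fli1* and *Elf1*, and 1 among the stronger 50% of Cxxc1 peaks, *Elf1*. The median WT promoter sum of the 6 genes, 3.4 RPM, was 3.85 RPM over whole peaks and within 2 kb. Of 12 alternative sums of single genes, 3 left their interval: *Ets2* at 6.4 RPM in both and *Fli1* at 5.5 RPM over whole peaks. Sums of 21 to 39 tags carry wide intervals, and values below the peak calling are unknown. No paired analysis was possible because there were no replicates to pair.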

Other observations

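Among the other Ets genes, *Elf2* was listed in all 3 lists at a promoter, with 2.9 RPM of WT H3K4me3, 1.8 RPM of Cxxc1-deficient H3K4me3 and 1.7 RPM of Cxxc1. *Erg*, the family member most like *Fli1* in sequence, had promoter H3K4me3 in both genotypes (1.8 RPM in WT, 1.4 RPM without Cxxc1) and 1.6 RPM of Cxxc1 within the gene or 10 kb upstream. *Etv5* had 4.4 RPM in WT, against 1.5 RPM in the Cxxc1-deficient list, and *Sfpi1*, which encodes the myeloid and B cell factor PU.1, had 2.2 RPM and 1.3 RPM. *Etv1* was listed in Cxxc1-deficient cells alone, at 1.7 RPM. Cxxc1 was listed within the gene or 10 kb upstream in 3 of the 22 genes, *Elf2*, *Erg* and *Etv6*. The share was 11.1% of all genes and 30.6% of those with regions of at least 80 kb. Of these 3 genes *Etv6* had the largest Cxxc1 sum, 4.1 RPM in 13 windows, not corrected for length. *Etv6* had 1.9 RPM of WT promoter H3K4me3 and none listed in Cxxc1-deficient cells. With 1 library a group, none of these differences was tested.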
